A study of Arabidopsis thaliana with 28 samples.

Results

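Roots of the Arabidopsis thaliana mutant arr1,10,12 and of the wild type Col-0 (WT) were compared after both had received benzyladenine (BA), a cytokinin. Open chromatin had been mapped by ATAC-seq, in which a Tn5 transposase tags accessible DNA in isolated nuclei. The comparison rests on 2 arr1,10,12 and 4 WT libraries, chosen by genotype, tissue and treatment, which are 6 of the 28 samples in the series. Both groups were kept in MS liquid medium with 5 µM BA for 45 min, and nuclei were sorted by DAPI fluorescence. Matching root libraries with vehicle, 2 of arr1,10,12 and 4 of WT, were used to ask whether a difference was also there without BA. The labels give the mutant only as arr1,10,12, name no alleles and give no plant age. The series text calls the libraries biological replicates.

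Cytokinin is perceived by the receptor histidine kinases AHK2, AHK3 and AHK4, which pass phosphate through the histidine phosphotransfer proteins (AHPs) to the nucleus. There it activates type-B response regulators, the DNA-binding transcription factors of the pathway, among which ARR1, ARR10 and ARR12 carry much of the response in roots. Their direct targets include the type-A response regulators, small proteins without a DNA-binding output domain that dampen the signal. A mutant in these genes is used to ask how much of the response to cytokinin depends on them.

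Each library is held here as a list of peak positions with neither scores nor reads, which leaves its depth unknown and gives no interval for counting error. Merging overlapping peaks of the 6 libraries gave 34986 regions, and 30082 had a peak in at least 2 libraries. A region is described by its covered percent, the share of its length under a peak in a library. A gene is described by the covered percent of its window, the gene body with 1000 bp on both sides, and 23743 of 27444 protein-coding genes had a peak in the window in at least 2 of the 6 libraries. In bulk tissue, fewer cells with open chromatin at a site and a narrower opening in each cell cannot be told apart.

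The amount of open chromatin called was close between the genotypes under BA. The arr1,10,12 libraries held 31655 and 32956 peaks, against 35228, 32575, 32171 and 32144 in WT. Peaks covered 24.7 ± 1.44 Mb in arr1,10,12 and 25.5 ± 1.22 Mb in WT (SD, n = 2 and 4; two-sided exact permutation test, p = 0.533, where 0.0667 is the smallest p that 15 splits allow). Base pairs under peaks were shared between libraries of unlike genotype with a mean Jaccard index of 0.794, against 0.802 for libraries of like genotype (one-sided exact permutation test, p = 0.267). A peak stood in all 6 libraries at 22379 regions. The genotypes thus shared most of their open regions.

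The windows of the mutated genes themselves were still covered by peaks in the mutant. ARR1 was 45.0% and 54.4% covered in arr1,10,12, against 49.4%, 58.0%, 56.1% and 50.2% in WT. ARR10 was 37.1% and 36.7% covered in arr1,10,12, against 40.1%, 46.5%, 37.5% and 38.0% in WT. ARR12 was 36.9% and 43.5% covered in arr1,10,12, against 53.6%, 44.0%, 50.4% and 60.1% in WT. The groups overlapped at ARR1. At ARR10 and ARR12 they did not, though the nearest libraries of the 2 genotypes lay less than 1 point apart. Mean differences were -3.73 points at ARR1, -3.63 at ARR10 and -11.8 at ARR12. With vehicle ARR12 differed by -11.4 points, again without overlap. Of the regions over ARR12, that of 1361 bp was 28.8% and 37.9% covered in arr1,10,12, against 89.3%, 55.2%, 81.9% and 94.1% in WT (limma adjusted p = 0.787). With vehicle it was 35.1% and 31.2% covered in arr1,10,12, against 56.65% to 100% in WT. In the other region, of 1711 bp, the groups overlapped under BA. None of the 3 windows passed the test under BA (limma, adjusted p = 0.978, 0.975 and 0.949). Peak coverage does not show whether a gene product is made, so these values check neither the mutation nor the labels.

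Of the 9 gene lists examined, that of the type-A regulators had the largest share of members without overlap. All 10 type-A windows had a lower mean in arr1,10,12 than in WT, and in 9 of 10 the groups did not overlap. Of all windows tested 8.13% had a lower and non-overlapping arr1,10,12 group and 4.94% a higher one. Margins were small at ARR4, ARR5 and ARR9, where the highest arr1,10,12 and lowest WT libraries were at 87.7% and 87.8%, 96.6% and 97.5%, and 56.3% and 56.7%. ARR15 and ARR16 had no arr1,10,12 peak under BA and were tested only because of their WT peaks. The median difference was -13.01 percentage points for the list and -0.343 points for all windows. The mean over the list was 46.1% ± 0.9 in arr1,10,12 and 64.0% ± 4.6 in WT (SD over libraries, n = 2 and 4). With vehicle the groups did not overlap in 6 of the 10 windows, all lower in arr1,10,12, against 10.4% of all windows lower and 4.04% higher, and the median difference of the list was -7.69 points. No type-A window passed an adjusted p of 0.05 in limma fitted on the 6 libraries, and ARR7 did when the spread was taken from all 12 root libraries.

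**Figure D1:**
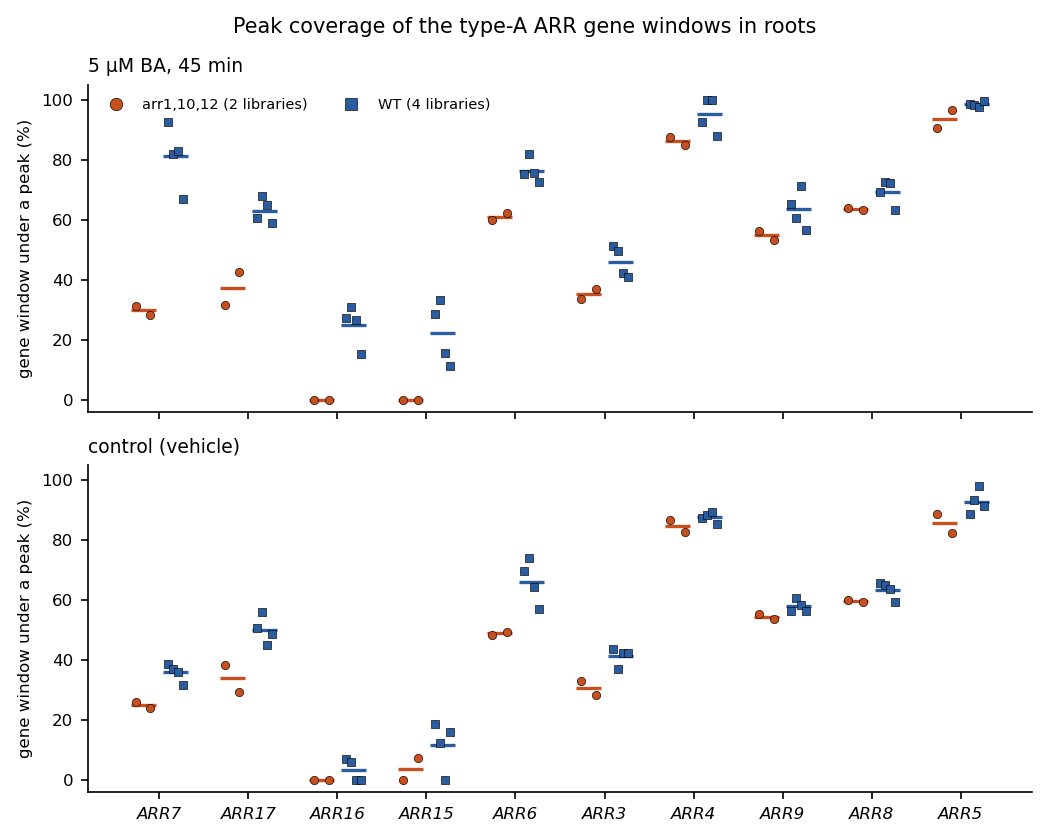
Covered percent of the 10 type-A gene windows in every root library, with BA (upper panel) and with vehicle (lower panel). Each point is 1 library, bars are group means, and genes run from the largest to the smallest difference under BA; the 2 arr1,10,12 points lie below all 4 WT points under BA at every gene but ARR8.

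ARR7 stood apart from the rest of the family. Its window was 31.2% and 28.5% covered in arr1,10,12, against 92.6%, 81.9%, 83.0% and 66.9% in WT. No arr1,10,12 library came near a WT library, and the difference of -51.3 points was the most negative among all windows tested (SE 7.06, limma adjusted p = 0.233 with 6 libraries and 0.00794 with the spread of 12 root libraries). With vehicle the window was 26.1% and 24.0% covered in arr1,10,12, against 38.7%, 37.0%, 36.2% and 31.7% in WT. The gap between genotypes was therefore larger with BA than with vehicle by 40.4 points (interaction -40.4, SE 7.92, limma unadjusted p = 0.000489), but no window passed adjustment in that test, where the smallest adjusted p was 1.

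A pair of separate stretches of open chromatin reached over the ARR7 gene. One of 1820 bp (chromosome 1, 6576629 to 6578448, TAIR10) held no peak in either arr1,10,12 library and was 99.6%, 84.1%, 86.8% and 56.4% covered in WT. It reached over the neighbour AT1G19040, whose window was 0% covered in both arr1,10,12 libraries and 53.5%, 44.8%, 47.3% and 30.8% covered in WT (difference -44.1 points, SE 6.23, limma adjusted p = 0.242 with 6 libraries and 0.00835 with 12). Without an arr1,10,12 peak, the AT1G19040 window was tested only because of its WT peaks. With vehicle only WT replicate 1 had a peak in the 1820 bp region, over 10.99% of its length. The other stretch, of 3171 bp (chromosome 1, 6578897 to 6582067), was open in the mutant as well. It was 47.6% and 41.6% covered in arr1,10,12, against 100%, 97.7%, 92.2% and 90.3% in WT. One stretch thus had no called peak in the mutant, and the other had narrower ones.

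ARR16 and ARR15, a pair of type-A genes with little open chromatin, had no peak in their windows in either arr1,10,12 BA library. Both were therefore tested only because of their WT peaks and had to come out lower. The ARR16 window was 27.4%, 31.0%, 26.5% and 15.2% covered in WT under BA (difference -25.0 points, SE 4.43, limma adjusted p = 0.358 with 6 libraries and 0.0536 with 12). Its main region (990 bp, chromosome 2, 16969061 to 16970050) was 89.4%, 89.1%, 88.1% and 68.3% covered in WT with BA, and with vehicle it held a peak in WT replicates 1 and 2 alone. The ARR15 window was 28.6%, 33.3%, 15.7% and 11.2% covered in WT under BA (difference -22.2 points, SE 6.68, limma adjusted p = 0.743). Regions of 347 bp and 610 bp in the flanks held a peak in all 4 WT libraries (chromosome 1, 28131024 to 28131370 and 28133458 to 28134067). At ARR15 the mutant was not always closed: with vehicle, arr1,10,12 replicate 2 had a peak over 43.4% of the second flanking region.

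**Figure D2:**
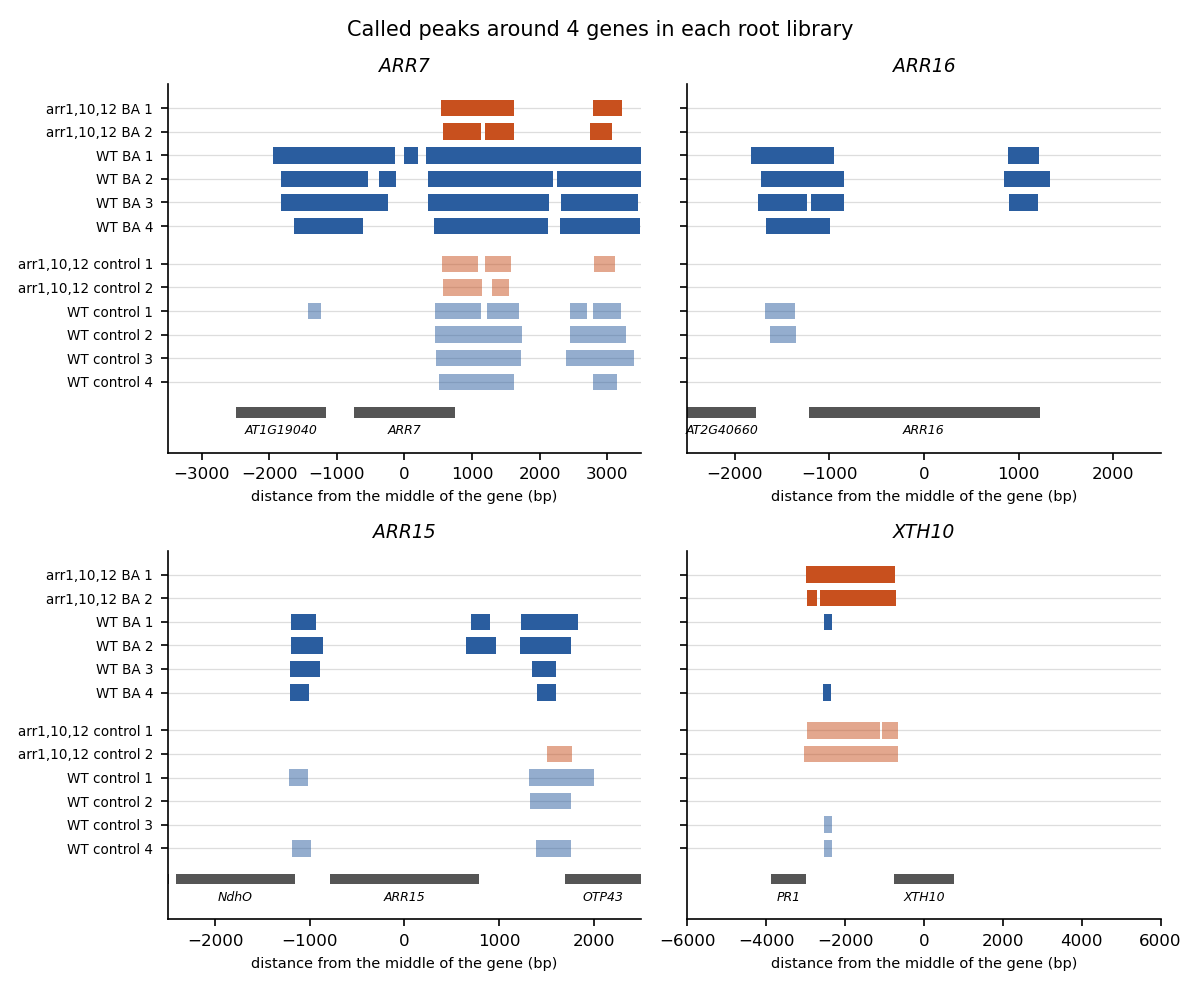
Called peaks (horizontal bars) around ARR7, ARR16, ARR15 and XTH10 in each of the 12 root libraries, arr1,10,12 in orange and WT in blue, with vehicle libraries pale. The horizontal axis is the distance in bp from the middle of the gene, grey bars are genes, and at the 3 ARR genes the arr1,10,12 BA rows are empty or shorter than the WT BA rows, while at XTH10 the arr1,10,12 rows are filled and the WT rows hold no peak or a 200 bp one.

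The other type-A genes were open in both genotypes and less widely so in the mutant. ARR17 was 31.6% and 42.7% covered in arr1,10,12, against 60.5%, 67.9%, 64.9% and 58.9% in WT (difference -25.9 points, SE 4.35, limma adjusted p = 0.312). ARR6 was 59.9% and 62.1% covered in arr1,10,12, against 75.2%, 81.8%, 75.5% and 72.7% in WT (difference -15.3 points, SE 3.17, limma adjusted p = 0.470). ARR3 was 33.8% and 36.8% covered in arr1,10,12, against 51.2%, 49.5%, 42.4% and 40.9% in WT (difference -10.7 points, SE 3.77, limma adjusted p = 0.856). With vehicle these 3 genes differed by -16.2, -17.2 and -10.6 points, again without overlap. ARR4, ARR5, ARR8 and ARR9 differed by -8.79, -4.86, -5.72 and -8.58 points, with adjusted p of 0.964 to 0.975 in limma. At ARR8 WT replicate 4, at 63.1%, lay just below both arr1,10,12 libraries, at 63.9% and 63.2%. The ARR5 window was nearly full in both genotypes (90.5% and 96.6% in arr1,10,12, 97.5% to 99.6% in WT). The wider ARR5 region (5341 bp, chromosome 3, 17757493 to 17762833) showed a larger gap, with 78.8% and 87.1% covered in arr1,10,12, against 94.3%, 99.7%, 96.6% and 100% in WT.

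Upstream in the pathway, 4 of 9 windows of receptors and phosphotransfer proteins were lower and 1 was higher without overlap, against 8.13% and 4.94% of all windows. Their median difference was -4.77 points, against -0.343 points for all windows, and none of the 9 passed the test. The receptor gene AHK4 was 30.9% and 40.2% covered in arr1,10,12, against 42.5%, 44.3%, 45.5% and 45.0% in WT. AHK2, another receptor gene, was 26.3% and 23.6% covered in arr1,10,12, against 19.1%, 17.0%, 21.9% and 21.0% in WT, and is the member with a higher mutant group. AHK3 differed by -0.0129 points. Among the AHPs, AHP1, AHP3 and AHP4 were lower without overlap, by -2.89, -7.18 and -5.23 points, and with vehicle AHP3 was higher in arr1,10,12 by 9.54 points without overlap. Of 11 type-B genes, 8 had windows that could be tested and their median difference was -1.62 points. ARR13, ARR19 and ARR21 had no peak in the window in any of the 6 libraries. ARR10 and ARR12 were the type-B windows whose groups did not overlap.

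CKX enzymes degrade cytokinins by cleaving the side chain, and CKX3, CKX4, CKX5 and CKX6 were lower in the mutant. Of 7 CKX windows these 4 were lower without overlap and none was higher, against 8.13% lower and 4.94% higher among all windows, with a median difference of -8.62 points. CKX1, CKX2 and CKX7 overlapped between genotypes, with differences of 0.106, -0.781 and -5.001 points. CKX6 (AT3G63440) was 21.3% and 25.2% covered in arr1,10,12, against 46.7%, 42.5%, 50.5% and 44.2% in WT (difference -22.7 points, SE 2.93, limma adjusted p = 0.217 with 6 libraries and 0.0219 with the spread of 12). A region of 788 bp over CKX6 (chromosome 3, 23423487 to 23424274) held no peak in either arr1,10,12 library and was 99.0%, 90.4%, 85.7% and 67.6% covered in WT. With vehicle the same region was 0% and 25.4% covered in arr1,10,12, against 69.0%, 100%, 84.9% and 63.6% in WT, so that this difference was there with and without BA.

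CKX5 and CKX4 were open in the mutant and wider in WT. CKX5 was 48.0% and 50.9% covered in arr1,10,12, against 76.1%, 81.0%, 73.9% and 60.1% in WT (difference -23.3 points, SE 6.06, limma adjusted p = 0.631). CKX4 was 44.4% and 63.8% covered in arr1,10,12, against 69.6%, 85.6%, 79.3% and 78.5% in WT (difference -24.1 points, SE 6.79, limma adjusted p = 0.697). The 2 mutant libraries themselves stood well apart at CKX4. With vehicle the gap at CKX4 was -3.32 points (interaction -20.8, SE 7.60, limma unadjusted p = 0.0212). CKX3 was 11.7% and 9.30% covered in arr1,10,12, against 22.7%, 21.5%, 19.7% and 12.5% in WT.

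Synthesis, activation and transport genes were mixed. Over the whole list of cytokinin metabolism and transport, 28 of 30 windows could be tested, and 6 were lower and none higher without overlap (8.13% and 4.94% of all windows). The median difference was -0.413 points, close to that of all windows. LOG2 (AT2G35990), an enzyme that releases active cytokinin bases, was 20.6% and 22.1% covered in arr1,10,12, against 44.6%, 72.6%, 51.2% and 38.0% in WT (difference -30.2 points, SE 9.67, limma adjusted p = 0.797). A region of 3453 bp over LOG2 is nearest to its neighbour YLS9, with means of 39.2% in arr1,10,12 and 76.6% in WT. A region of 1493 bp is nearest to LOG2 itself, with means of 15.1% and 68.3%. CYP735A2, the hydroxylase that leads to trans-zeatin forms, was 21.9% and 28.8% covered in arr1,10,12, against 77.5%, 35.6%, 46.4% and 37.7% in WT (difference -24.0 points, SE 12.5, limma adjusted p = 0.975). WT replicate 1 stood far above the other 3 WT libraries. The 7 testable IPT windows, for the enzymes that begin cytokinin synthesis, all overlapped between genotypes, and IPT4 and IPT8 had no peak.

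Early cytokinin response genes included several that were lower. Of 15 windows 6 were lower and none higher without overlap (8.13% and 4.94% of all windows), and the median difference was -2.50 points. With vehicle 6 were also lower and 0 higher without overlap (10.4% and 4.04% of all windows). The median difference with vehicle was -3.67 points, so the lower values of this list were not particular to BA. LBD3, a LOB-domain transcription factor gene induced by cytokinin, was 24.9% and 37.3% covered in arr1,10,12, against 62.6%, 59.8%, 55.3% and 52.1% in WT (difference -26.3 points, SE 4.76, limma adjusted p = 0.366). CRF4, a cytokinin response factor gene, was 39.9% and 39.7% covered in arr1,10,12, against 61.5%, 57.6%, 49.4% and 54.0% in WT (difference -15.8 points, SE 3.80, limma adjusted p = 0.576). HBI1, a growth-promoting bHLH factor gene, differed by -9.82 points without overlap. With vehicle LBD3 and CRF4 differed by -14.2 and -9.96 points, again without overlap.

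IAA3 and IAA17, adjacent genes for Aux/IAA repressors of auxin signalling, were also lower. IAA17 was 40.9% and 43.3% covered in arr1,10,12, against 69.5%, 66.2%, 68.6% and 57.9% in WT (difference -23.5 points, SE 3.97, limma adjusted p = 0.316). IAA3 was 31.1% and 27.3% covered in arr1,10,12, against 47.6%, 39.9%, 41.3% and 37.9% in WT (difference -12.5 points, SE 3.24, limma adjusted p = 0.631). With vehicle IAA3 differed by -14.2 points and IAA17 by -5.77 points. Among 17 other auxin genes the median difference was -0.255 points, with 4 lower and 1 higher without overlap (8.13% and 4.94% of all windows), so the count of higher windows was near that of all windows. That window was PIN4, an auxin efflux carrier gene, with 32.2% and 37.4% in arr1,10,12, against 26.7%, 23.1%, 21.5% and 27.8% in WT.

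Lists for cell identity moved little. Of 25 root identity genes 22 had windows that could be tested, 2 were lower and 2 higher without overlap, counts near the 8.13% and 4.94% of all windows, and the median difference was 1.66 points. The mean over this list was 29.5% and 33.1% in arr1,10,12, and 28.1% to 31.9% in WT. CASP1, which builds the Casparian strip of the endodermis, was 48.5% and 77.3% covered in arr1,10,12, against 44.4%, 44.6%, 39.4% and 31.6% in WT (difference 22.9 points, limma adjusted p = 0.890). APL and FEZ had no peak in any of the 6 libraries, and PLT1 had one in WT replicate 1. Of 23 genes of photosynthesis and leaf identity 18 were testable and 1 was lower and 2 were higher without overlap (8.13% and 4.94% of all windows), and the list mean was 27.9% and 29.97% in arr1,10,12 and 27.6% to 32.1% in WT. The shoot meristem gene STM and the Rubisco genes RBCS1B, RBCS2B and RBCS3B were at 0% throughout. The part of cell composition in the differences above was not tested.

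Across all genes the fit on the 6 libraries called 1 window. XTH10, a xyloglucan endotransglucosylase/hydrolase gene of cell wall remodelling, was 29.3% and 28.9% covered in arr1,10,12 and 0% in all 4 WT libraries, a rise of 29.1 points (SE 0.833, limma adjusted p = 0.00157). That is 0.00421% of windows called higher and 0.0% called lower. With no peak in WT, XTH10 met the need for a peak in 2 libraries only through arr1,10,12, so that it had to differ to be tested at all. Its SD was 0.242 points in arr1,10,12 and 0 in WT, so the SE of 0.833 came largely from the trend over all windows. At an unadjusted p below 0.05 the same limma fit held 1268 windows, 5.34% of those tested. The call was lost when either arr1,10,12 library was left out and when the replicate number entered as a block (0 windows higher). Nearly the same values stood without BA (29.0% and 31.2% in arr1,10,12, 0% in all 4 WT libraries). The peaks came from a region of 2273 bp (chromosome 2, 6242531 to 6244803) that was 99.8% and 94.4% covered in arr1,10,12 and 8.80%, 0%, 0% and 8.80% in WT. It lies between XTH10 and PR1, a pathogenesis-related gene widely used as a marker of salicylic acid defence. PR1 was therefore higher as well, with 34.8% and 31.0% in arr1,10,12, against 6.89%, 0%, 0% and 6.89% in WT.

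With the spread taken from all 12 root libraries 24 windows passed, 17 lower (0.0716% of those tested) and 7 higher (0.0295%). That fit treats the 12 libraries as independent, although BA and vehicle libraries of the same number deviated together (correlation 0.310 to 0.468 in WT and 0.505 in arr1,10,12). Because neighbouring windows share peaks, the 17 lower windows stand at 13 loci and the 7 higher ones at 6. The lower windows fell by 5.05 to 51.3 points, and 7 of the 17 were at 0% in both arr1,10,12 libraries and were tested only because of their WT peaks. Among those not yet named, AT4G11190 was 28.9% and 35.4% covered in arr1,10,12, against 72.7%, 75.1%, 76.0% and 72.8% in WT (difference -42.0 points, adjusted p = 0.00216 in limma with 12 libraries). MAKR6, a membrane-associated kinase regulator gene, was 22.4% and 19.2% covered in arr1,10,12, against 47.0%, 46.5%, 41.7% and 42.8% in WT (difference -23.7 points, adjusted p = 0.0219 in limma with 12 libraries). The sulfotransferase gene AT3G45070 was 28.9% and 27.8% covered in arr1,10,12, against 56.3%, 57.3%, 52.2% and 50.2% in WT (difference -25.6 points, adjusted p = 0.00492 in limma with 12 libraries). The WT libraries lay close together at each of these 3 genes. AT5G51790 and AT4G23670 fell by 30.7 and 19.1 points, and on the higher side ARAB-1, the neighbour of AT1G28660, rose by 16.99 points.

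Several of these calls rest on narrow peaks, and others on peaks that neighbouring windows share. On chromosome 2, AT2G43470, AT2G43530 and AT2G43535 differed by -19.6, -22.6 and -25.7 points. The last 2 windows share a region of 2953 bp, which was 59.6% and 67.2% covered in arr1,10,12, against 92.0%, 83.7%, 97.9% and 90.1% in WT. AT3G12775, AT3G50710, AT3G50720, GLIP7 and AT5G15725 were 0% covered in both arr1,10,12 libraries and 5.05% to 8.60% covered in WT, so that narrow peaks made each difference. With vehicle both arr1,10,12 libraries did have a peak in these 5 windows, over 5.05% to 6.57%. Of the higher windows, AT1G67623 was 38.8% and 50.8% covered in arr1,10,12, against 14.7%, 17.7%, 13.6% and 13.1% in WT (difference 30.02 points, adjusted p = 0.00508 in limma with 12 libraries). AT1G28660, AT1G36970 and AT2G02540 were at 0% in all 4 WT libraries and at 24.0% or less in arr1,10,12, so that, like XTH10, they were tested only because of their arr1,10,12 peaks. With vehicle all 17 lower windows differed in the same direction, 16 of them without overlap and AT1G19040 with overlap. The 7 higher ones also kept their direction, all without overlap. Of all windows 10.4% were lower and 4.04% higher without overlap with vehicle. The vehicle libraries entered the spread of the fit that made these calls, so this order is not independent of the calls.

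By size of difference alone, without a test, the lower side was the longer. In 104 windows (0.438%) the arr1,10,12 group was lower without overlap by at least 20 points, and in 30 (0.126%) it was higher by as much. The 104 windows stand at 88 loci. Of them 5 were at 0% in both arr1,10,12 libraries, and of the 30 higher ones 3 were at 0% in all 4 WT libraries. Those windows had to differ to be tested at all. After ARR7, the windows with the largest lower differences were AT1G72141 (-49.8 points), AT4G11320 (-47.2), AT1G10455 (-46.6) and AT1G19040. The AT1G72141 difference lay in the flanks and was 0 over the gene alone. AT4G11320, which encodes a cysteine protease, was 18.2% and 24.1% covered in arr1,10,12, against 76.3%, 62.4%, 68.4% and 66.0% in WT. AT1G10455, next to ARR4, was 28.3% and 20.5% covered in arr1,10,12, against 73.4%, 80.8%, 73.8% and 56.0% in WT. The other members of the 10 lower windows were AT4G11190, AT5G26262, AT1G72140, AT5G26260 and AT3G45093, with -42.0 to -38.7 points. On the higher side AT3G23420 led with 47.4% and 31.9% in arr1,10,12 and 0% in all 4 WT libraries. AT2G34000 was 64.7% and 70.6% covered in arr1,10,12, and its WT libraries ranged widely, at 20.01%, 16.7%, 34.4% and 62.5%. The others were AT4G39675, AT4G19865, LCR35, AT4G19870 and AT5G45510, with 25.7 to 27.3 points.

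**Figure D3:**
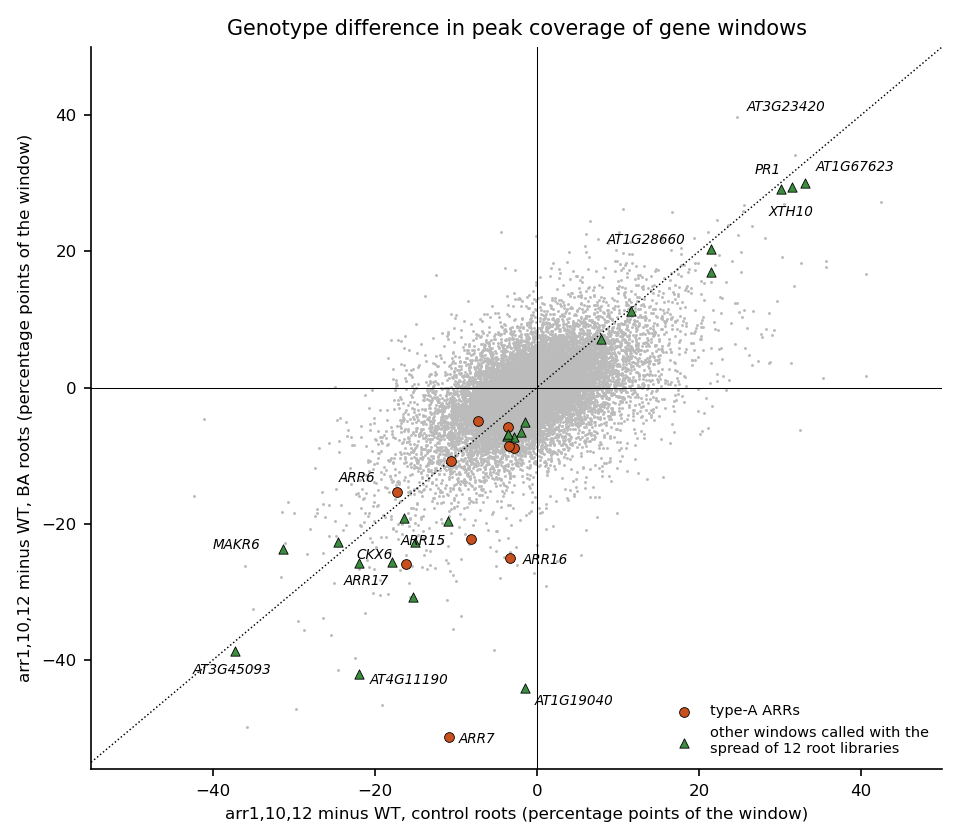
Difference in mean covered percent of each gene window, arr1,10,12 minus WT, under BA (vertical axis, percentage points) against the same difference with vehicle (horizontal axis). Grey points are the 23743 windows, orange circles type-A genes and green triangles other windows called with the spread of 12 root libraries; the dotted line marks equal differences, ARR7, ARR16 and AT1G19040 lie far below it, and XTH10 and PR1 lie close to it.

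Whether the genotype difference itself depended on BA was tested as an interaction over the 12 root libraries. None of 24267 windows was called (limma, smallest adjusted p = 1), and 340 windows, 1.40%, had an unadjusted p below 0.05. Leaving out 1 library gave 6 lower windows without arr1,10,12 vehicle replicate 1, 2 without arr1,10,12 vehicle replicate 2, 1 without WT BA replicate 4 and 0 in the other cases. The lower windows with the smallest p included AT1G19040 (interaction -42.6 points, SE 6.92, limma unadjusted p = 0.000115) and ARR7. ARR16 had an interaction of -21.7 points (SE 5.41, limma unadjusted p = 0.00256). AT2G40660, the neighbour of ARR16, was 10.2% and 13.7% covered in arr1,10,12, against 27.9%, 30.03%, 29.7% and 26.96% in WT under BA, and with vehicle it was 16.5% and 14.99% covered in arr1,10,12, against 19.2%, 15.99%, 9.33% and 8.89% in WT (interaction -19.1 points). The remaining 2 lower windows by that rule, AT2G37800 and AT3G10405, had no peak in any WT library and peaks in both arr1,10,12 libraries with vehicle.

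The higher windows with the smallest interaction p were of another kind. At OFP15, an ovate family gene, the genotypes overlapped under BA, with 36.4% and 34.6% in arr1,10,12 and 36.3% to 39.0% in WT. With vehicle OFP15 was 24.5% and 21.7% covered in arr1,10,12, against 37.4% to 39.1% in WT (interaction 13.1 points, SE 2.54, limma unadjusted p = 0.000418). The A-type cyclin genes CYCA3;3 and CYCA3;4, which are neighbours, had interactions of 12.5 and 19.2 points. CYCA3;4 was 24.9% and 20.7% covered in arr1,10,12, against 17.7%, 10.9%, 12.7% and 17.1% in WT under BA, and with vehicle it was lower without overlap, with 9.01% and 21.5% in arr1,10,12, against 28.3%, 24.1%, 28.2% and 24.3% in WT. AT2G24970 and AT3G07930 had interactions of 9.61 and 13.1 points.

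The presence of a peak was compared region by region. A peak in all 4 WT and neither arr1,10,12 library was found at 255 of the 30082 regions (0.848%), and a peak in both arr1,10,12 and no WT library at 117 (0.389%). The rule asks for 4 absent libraries on one side and 2 on the other, so these 2 counts cannot be set against each other. The limma fit of covered percent called 0 of the 30082 regions (smallest adjusted p = 0.0852), with 1830 regions (6.08%) at an unadjusted p below 0.05. That fit took its spread from a trend over all regions rather than from each region's own libraries. Without the trend and robust options limma called 100 lower and 104 higher regions, and with the spread of 12 root libraries 4 lower and 0 higher.

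**Figure D4:**
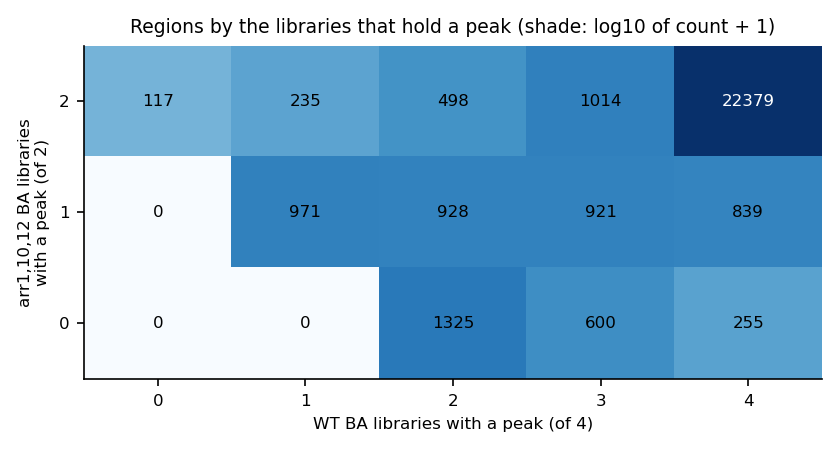
Number of regions for each combination of arr1,10,12 BA libraries (rows, 0 to 2) and WT BA libraries (columns, 0 to 4) that hold a peak. Shade follows the log10 of the count plus 1; most regions, 22379, are in the upper right cell, 255 are in the lower right cell and 117 in the upper left cell.

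The WT-only regions were narrower than the average region and lay more often away from genes. Their median width was 382 bp, and that of the arr1,10,12-only regions 299 bp, against 666 bp for all 30082. Of the WT-only regions 34.5% had a midpoint over 1 kb away from protein-coding genes, as did 25.6% of the arr1,10,12-only and 15.5% of all regions. The midpoint lay in a gene body in 23.9% of WT-only, 48.7% of arr1,10,12-only and 41.7% of all regions. Of the 255 regions 55 had another one within 10 kb, and of the 117 regions 7 did. Such counts grow with the size of a set, so they cannot be set against each other.

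The WT-only regions with most peak length included sites at ARR7 and ARR16. After the 1820 bp region beside ARR7 came one of 1754 bp near AT3G45093 (chromosome 3, 16497130 to 16498883), covered 67.0%, 90.3%, 84.6% and 83.7% in WT. A region of 1951 bp over THAS1, the thalianol synthase gene of root triterpene synthesis (chromosome 5, 19460711 to 19462661), was covered 46.8%, 100%, 32.4% and 10.3% in WT. Others had AT3G25570, ZF14, AT2G22790, AT4G06744, AT1G30090 and AT1G31850 as the nearest gene, with mean WT coverage of 63.0% to 86.4%. In the AT4G06744 region that gene is 59368 bp away. None of these regions held a peak in an arr1,10,12 BA library, which is how they were chosen.

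The arr1,10,12-only regions were led by one of 1884 bp on chromosome 1 (14144052 to 14145935), 6290 bp from AT1G37113. It was 100% and 96.9% covered in the arr1,10,12 BA libraries, 99.4% and 97.3% covered in the arr1,10,12 vehicle libraries, and without a peak in all 8 WT root libraries. A region of 944 bp near AT1G28660 (chromosome 1, 10073274 to 10074217) was 70.3% and 100% covered with BA and 83.6% and 94.2% with vehicle in arr1,10,12, again with no WT peak. The next were nearest to AT5G19890, AT4G39675, NAC067, AT1G36970, AT3G23420, AT4G02950, AT1G31050 and AT3G53820. Of these, AT1G36970 and AT4G02950 also had no WT vehicle peak, and the regions at AT5G19890, AT4G39675, NAC067, AT3G23420, AT1G31050 and AT3G53820 had one in 2 or 3 of 4 WT vehicle libraries.

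The vehicle libraries had no part in choosing these regions and showed the same order. The 255 WT-only regions were on average 17.3% and 23.9% covered in arr1,10,12 with vehicle, against 53.9%, 72.8%, 59.9% and 51.5% in WT with vehicle (difference -38.9 points, two-sided exact permutation test, p = 0.0667, the smallest possible). The 117 arr1,10,12-only regions were 40.5% and 56.5% covered in arr1,10,12 with vehicle, against 27.3%, 22.1%, 31.9% and 22.04% in WT with vehicle (difference 22.7 points, two-sided exact permutation test, p = 0.0667). Over all regions the means were 67.4% and 75.7% in arr1,10,12, against 80.0%, 81.5%, 75.1% and 73.5% in WT (p = 0.267 in the same exact test). Vehicle and BA libraries of the same number may share material, so this is not fully independent of the choice.

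**Figure D5:**
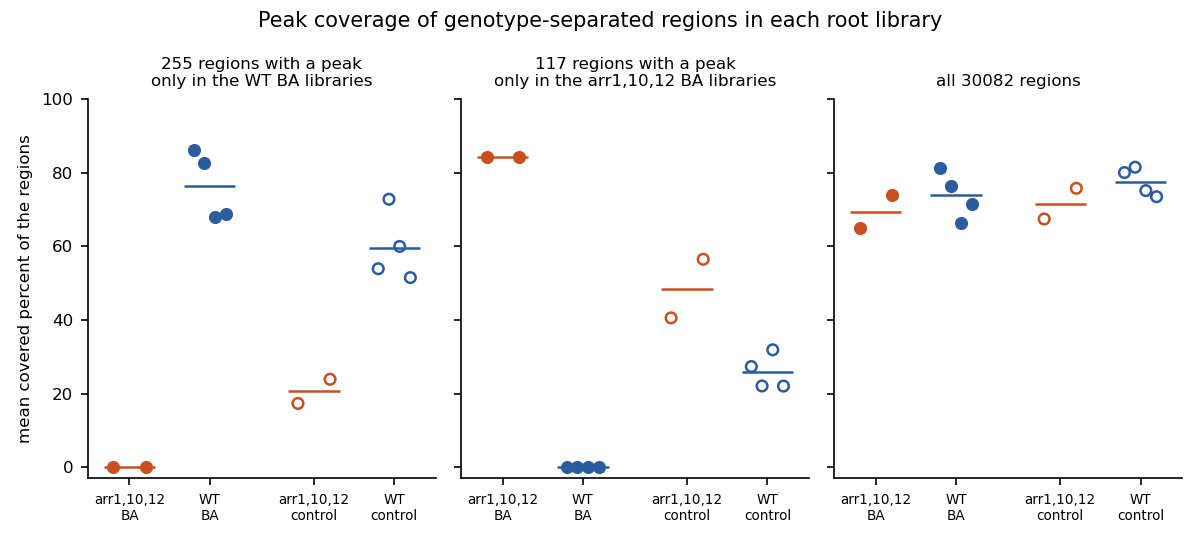
Mean covered percent of the 255 WT-only regions, the 117 arr1,10,12-only regions and all 30082 regions in each root library (filled points BA, open points vehicle, bars group means). With vehicle the WT-only regions average 17.3% and 23.9% in arr1,10,12 and 51.5% to 72.8% in WT; the filled points of the first 2 panels were fixed by the choice of regions.

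A smaller set kept the genotype pattern in every root library. At 44 regions all 8 WT root libraries and none of the 4 arr1,10,12 root libraries had a peak, and at 13 regions the reverse held. The 44 were 17.3% of the 255 WT-only regions, and the 13 were 11.1% of the 117 arr1,10,12-only regions. Among all 30082 regions, 362 (1.203%) had the first pattern in the vehicle libraries and 43 (0.143%) the reverse. These shares were not tested. Of the 44 regions 18 lay more than 1 kb from a gene, 22 within 1 kb and 4 in a gene body. They included 2 at TLL1 (chromosome 1, 17123415 to 17123908 and 17126109 to 17126962), 1 near the cell wall expansin gene EXPA10 (chromosome 1, 9261691 to 9262110), 1 near the ethylene synthesis gene ACS9 (chromosome 3, 18436533 to 18436916) and 1 near WUS (chromosome 2, 7811116 to 7811416), the stem cell regulator gene of the shoot meristem. The 13 reverse regions included 1 near PIN4 (chromosome 2, 184469 to 184825). These genes were picked from the 57 regions after their values were seen.

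The authors' deposited list of 760 root regions with differential accessibility was made with these same WT BA libraries against WT vehicle libraries. A lower value in arr1,10,12 under BA is therefore in part set by that choice, and the values are given without a test. The 760 regions were on average 90.6% and 92.5% covered in arr1,10,12, against 99.4%, 99.6%, 98.4% and 98.7% in WT. With vehicle they were 88.5% ± 1.27 covered in arr1,10,12 and 96.1% ± 1.46 in WT (SD, n = 2 and 4). In 419 regions all 6 BA libraries were fully covered, and in 165 (21.7%) the arr1,10,12 group was lower without overlap, against 3 that were higher. Among all 30082 regions 8.09% were lower and 4.97% higher without overlap.

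Individual regions of that list ranged from fully open to closed in the mutant. At 7 of the 760 regions every WT BA library and no arr1,10,12 BA library had a peak. Among all 30082 regions 255 (0.848%) had this pattern, so the share in the list was near that of all regions. One lies by ARR16 (chromosome 2, 16969303 to 16969560), and the others had AT1G14630, AT1G67120, AT2G22790, CYP82F1, AT5G39770 and AT5G47970 as the nearest gene, all covered 100% in the 4 WT libraries. At AT1G14630 (chromosome 1, 5018463 to 5018660) the WT vehicle libraries were 92.9% to 100% covered too. In the ARR7 region of the list (chromosome 1, 6580023 to 6580560) coverage was 32.7% and 33.1% in arr1,10,12, against 100% in all 4 WT libraries. Of 55 regions nearest to a gene of the cytokinin lists 22 were lower without overlap and 0 higher, against 165 (21.7%) lower and 3 higher of all 760. The 3 higher regions were nearest to AT2G44500, BGLU4 and NUDT17.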

How the data were processed

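ATAC-seq peaks of 12 root libraries were used. The 12 RNA-seq samples and the 4 shoot libraries were not analysed here. The deposited peak lists hold start and end positions and no other value, so no count, score or signal was at hand. The submitters' processing notes name Bowtie 1.2.0, SAMtools 1.5, deepTools 2.5.2, HOMER 4.9.2 and the TAIR10 build, and the role of each is not given in the sources used here. The name of the authors' list of differential regions gives diffReps.

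Overlapping peaks (at least 1 bp) of the 6 BA libraries were merged into regions, of which those found in 2 or more libraries entered the tests. Covered percent was computed here for each region and for each gene with 1000 bp on both sides. Genes came from the RefSeq table of TAIR10.1. It gives no strand, and none of its coordinates are printed. Peak density along its genes was checked for a shift against TAIR10, and 62 of 62 bins of 2 Mb lay within 100 bp (largest shift 50 bp).

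Differences are arr1,10,12 minus WT, in percentage points. They were tested with limma 3.58.1 (trend and robust options, R 4.3.3) over all regions or windows with Benjamini-Hochberg adjustment and a threshold of 0.05. Genotypes were compared on the 6 BA libraries, and a further fit took the spread from all 12 root libraries. The interaction was fitted on the 12 root libraries. Library values were compared by exact permutation over 15 splits with numpy 2.4.6 in Python 3.11.15. The limma fit of windows on the 6 libraries was tested on simulated data, with shifts placed only in windows of middle coverage. The computation of covered length was checked on random peaks. The region fit, the fit with 12 libraries and the interaction were not simulated, nor were shifts in windows near 0%.

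The series text calls the libraries biological replicates, and p-values of library values measure the spread between these libraries. In the window fit limma combined each window's own spread with a trend over all windows (median of 5.63 degrees of freedom). Where the libraries of a group hardly differ, the p-value rests largely on that trend. GLIP7 had an SD of 0 in both BA groups and an SE of 0.773 in the 6-library fit. In the region fit limma replaced each region's own spread with the trend over all regions (median of 120328 degrees of freedom). Its p-values therefore do not measure the spread of a single region between libraries. BA and vehicle libraries with the same number deviated together (correlation 0.310 to 0.468 in WT and 0.505 in arr1,10,12). Between genotypes the same-numbered libraries gave 0.0395 and -0.118, so that the numbers do not pair genotypes.

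Genes were named by a rule. It takes the mutated genes, all type-A regulators, cytokinin list members called or apart by at least 10 points without overlap, the 10 windows and 10 separated regions per direction, and 5 interaction windows per direction. Windows called with the spread of 12 libraries are named as well. Other genes named singly were chosen after their values were seen. Members and gene lists were chosen with earlier results of these data known. A planned search of promoters for type-B binding motifs was not run, since no sequence was used here.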

Additional observations from a re-analysis of the deposited data

Results flagged for a closer look

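Among 66 groups of 4 libraries 3 held a library far from the rest, where chance gives about 1 in 20 groups. WT BA replicate 1 had 35228 peaks, against 32144 to 32575 in the other 3 WT BA libraries. Without it the mean peak number of arr1,10,12 was 8.83 above that of WT. At the ARR16 region WT BA replicate 4 was 68.3% covered, against 88.1% to 89.4% in the other 3, and both arr1,10,12 libraries were at 0%. At the region near AT1G30090 WT BA replicate 4 was 26.5% covered, against 87.9% to 93.2% in the other 3, and both arr1,10,12 libraries were again at 0%. The part of library quality in these 3 values was not tested.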

How the results depend on the processing

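With 2 arr1,10,12 libraries, no read depth and exact tests limited to 15 splits, the number of called windows depended on how the spread was estimated. Called windows, lower and higher, were 0 and 1 in the 6-library limma fit. They were 17 and 7 with the spread of 12 libraries, 4 and 2 on the arcsine square root scale, 1 and 2 with the library mean subtracted, 3 lower with a flank of 0 bp, 2 lower with 500 bp and 2 higher with 2000 bp. They were 10 and 8 with no filter, 1 lower without the trend and robust options, and 104 and 30 by no overlap with at least 20 points. Called regions, 0 and 0, were 4 lower with the spread of 12 libraries, 3 lower on the arcsine scale, 16 lower with peaks up to 100 bp apart merged, 100 and 104 without the trend and robust options, and 1225 and 638 by no overlap with at least 20 points. The interaction gave 4 lower windows with a flank of 0 bp. The cause of these changes was not tested.

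With the replicate number as a block 0 windows were called higher, and no region or interaction was called; with replicates 1 and 2 of both genotypes 1577 regions were WT-only and 362 arr1,10,12-only, as fewer libraries must agree. Pairing BA with vehicle libraries within a genotype, a setting chosen after seeing the data, called 0 interaction windows. No arr1,10,12-only region can have a peak in at least 3 libraries (0), and 61 were left with peaks of at least 300 bp. With such peaks the difference in median width turned to 9.0 bp and the mean difference of the authors' root regions was -10.14 points.

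Leaving out 1 library in turn gave 0 to 1 windows higher and 0 lower, 0 to 65 regions lower, 0 to 6 interaction windows lower, 307 to 859 WT-only regions (859 without arr1,10,12 replicate 2) and 0 to 229 arr1,10,12-only regions (229 without WT replicate 4). Differences ranged over -1374.5 to 8.83 peaks, -1.84 to 0.2003 Mb (above 0 without arr1,10,12 replicate 1), -24.0 to 7.0 bp of median width, -3.65e-05 to 0.0147 of Jaccard index, -20.1 to -16.6 points for the type-A mean, and -8.45 to -6.56 points for the authors' root regions. Of the named windows, ARR1 turned to 0.343 points with a flank of 2000 bp and 0.977 without arr1,10,12 replicate 1, and ARR5 (flanks of 0 and 500 bp) and AT1G72141 (flank of 0 bp) went to 0. Over the 41 named windows 629 values kept direction and call, 15 gained the call, 2 lost it and 5 turned. All 140 values of the 20 named regions kept theirs.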

Other observations

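The thalianol cluster on chromosome 5 holds neighbouring genes for a root triterpene pathway, and values of 4 of them are given here. They were picked after their values were seen, for a lower arr1,10,12 group without overlap, which 8.13% of all windows had, and none passed limma with 6 or with 12 libraries. THAS1, thalianol synthase, was 12.9% and 13.4% covered in arr1,10,12, against 34.8%, 63.1%, 37.4% and 30.6% in WT. CYP708A2, thalianol hydroxylase, was 14.9% and 26.5% covered in arr1,10,12, against 56.7%, 66.01%, 49.8% and 45.4% in WT. CYP705A5, the desaturase of the pathway, was 18.3% and 24.4% covered in arr1,10,12, against 61.4%, 63.7%, 48.97% and 34.02% in WT. AT5G47980, next to these genes, was 19.8% and 26.2% covered in arr1,10,12, against 34.1%, 34.4%, 32.8% and 34.5% in WT. With vehicle the 4 genes differed by -9.99, -26.4, -15.7 and -6.10 points.

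Some other windows with a difference of at least 20 points were picked in the same way from the 104 lower and 30 higher ones. On the lower side were YLS9 (-35.4 points), the germin-like protein gene GLP7 (-36.4), the bHLH factor gene NAI1 (-26.1), the nitrilase gene NIT3 (-24.9), CYP79B3 of indole-3-acetaldoxime synthesis (-21.6), the auxin carrier-like gene PILS5 (AT2G17500, -24.4), the adenosine kinase gene ADK1 (AT3G09820, -22.4) and the xyloglucan xylosidase gene XYL1 (-20.9). YLS9 is the neighbour of LOG2, and the 3453 bp region that reaches over LOG2 has YLS9 as its nearest gene. By its locus number GLP7 (AT1G10460) stands between AT1G10455 and ARR4 (AT1G10470), which share a region of 15337 bp. These 2 windows are therefore not separate from differences given above. With vehicle PILS5 differed by 1.99 points and NIT3 by -4.11 points. On the higher side were the xylan synthesis gene FRA8, which was 85.8% and 84.9% covered in arr1,10,12, against 59.1%, 57.5%, 63.7% and 65.5% in WT, and the aquaporin gene PIP2A, which was 90.5% and 89.9% covered in arr1,10,12, against 69.9%, 52.8%, 80.5% and 71.2% in WT. None of these windows passed limma with 6 or with 12 libraries.

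Of the 104 lower windows with a difference of at least 20 points, 53 (51.0%) held a region of the authors' root list, as did 599 (2.52%) of all windows and 0 of the 30 higher ones. That list was made with the same WT BA libraries, so the share is a description.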
